A study of Mus musculus with 8 samples.

Results

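The collagen chain genes of the mouse were followed through 3 expression tables that compare JunB conditional knockout (JunB cKO) with wild type skin. The members were all genes whose symbol has the form Col, a type number, the letter a and a chain number, which gave 44 genes. They were grouped by type number into 11 fibrillar chains, 9 chains of basement membranes and their anchorage, 10 network chains, 9 FACIT chains (collagens that bind to the surface of fibrils), 4 transmembrane chains and 1 chain left without a class, Col26a1. Of these, 43 of 26340 genes were listed in the table of unperturbed keratinocytes, 44 of 46036 in that of hair plucking and 44 of 46048 in that of wounds. Col26a1 was the member without an entry in the unperturbed table, where its older symbol Emid2 stood at 0 FPKM in wild type against 0.240 in JunB cKO. FPKM is the number of sequenced fragments per kilobase of transcript, scaled to the size of the library, so levels of different genes can be set side by side per length.

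All mice were C57BL/6, labelled JunB +/+ or JunB -/-, and the mutants lacked JunB through a Cre recombinase under the K14 promoter acting on floxed alleles. K14 is a keratin of basal epidermal cells, so fibroblasts and other dermal cells of these mice keep JunB. The 8 samples form 3 pairs of groups, namely untreated keratinocytes freed with trypsin (called dorsal skin of mice aged 60 days in the study), skin depilated on postnatal day 54 and taken on day 58, which is 4 days later, and biopsies taken 30 days after wounding, for which the age of the mice was not given. RNA of 3 samples of a group was pooled before sequencing, and each table held 1 value per genotype, also for wounds, where the labels list 2 libraries per genotype. No difference below has a replicate check, and with 1 value per genotype no test was run on them. The plucked samples are labelled keratinocyte as tissue, although their titles call them skin biopsies.

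Collagens are coils of several chains, and many types are put together from the products of separate genes in fixed proportions. In skin, dermal fibroblasts secrete the fibrillar types I, III and V, whereas basal keratinocytes make chains of the basement membrane zone beneath them. There, type IV forms the sheet, type VII the anchoring fibrils, and the membrane-spanning type XVII chain of the hemidesmosome holds the keratinocyte to the sheet. The genes for types I and III are thus known as marks of dermis, and Col17a1 as one of basal epidermis.

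Different chains led the collagens in the 3 tables. Pairs of values are given with wild type first. Since each table was normalized separately and on its own set of loci, the levels are set across tables only as shares of a table's own collagen sum. In unperturbed keratinocytes the summed FPKM of all members was 793 in wild type against 527 in JunB cKO, and Col17a1 alone made up 81.3% and 78.1% of it. The type I and III chains Col1a1, Col1a2 and Col3a1 gave 1.24% and 1.17% of that sum. After hair plucking the sum was 5174 in wild type against 2204 in JunB cKO. Types I and III made up 82.2% of it in wild type against 59.3% in JunB cKO, whereas Col17a1 made up 3.45% and 16.7%. In wounds the sum was 10101 in wild type against 13178 in JunB cKO, with types I and III at 87.9% and 89.1%. The share of Col17a1 there was 0.847% and 0.670%. Of the sample pairs labelled keratinocyte, the unperturbed one was led by the epidermal chain and the plucked one by types I and III.

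**Figure D1:**
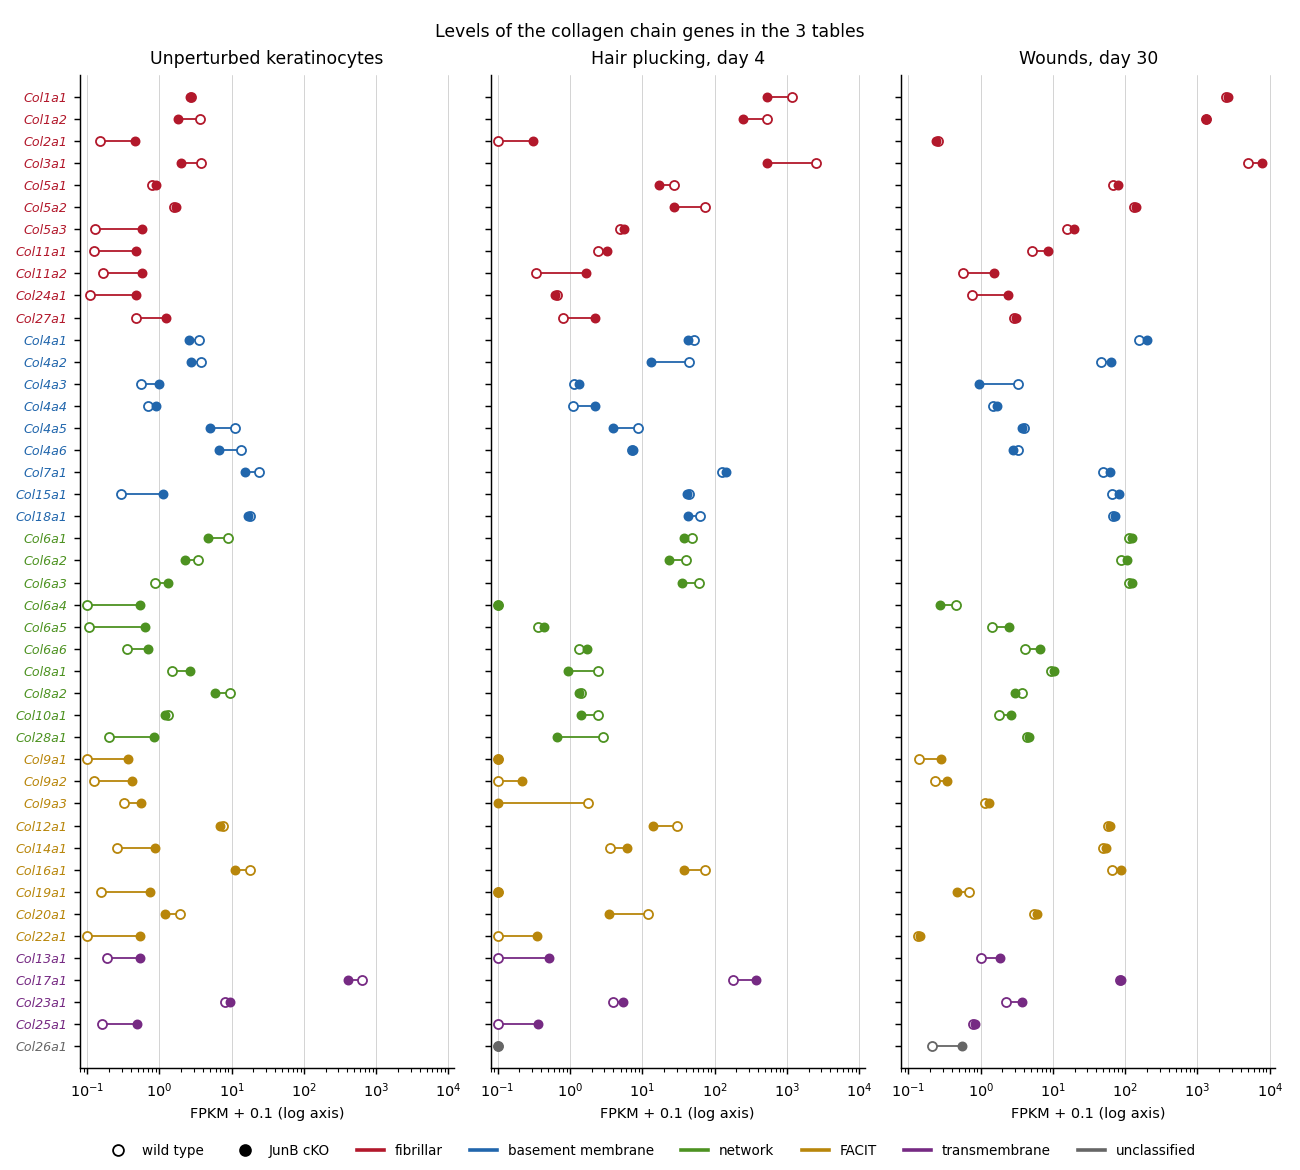
FPKM of every collagen chain gene (rows, coloured by class) in the 3 tables, on a log axis after adding 0.1, with wild type as open and JunB cKO as filled circles and 1 value per genotype. In hair plucking the filled circle of Col3a1 (535) lies far to the left of the open circle (2559), in wounds it lies to the right (7735 against 5055), and in unperturbed keratinocytes Col17a1 stands alone above 100 FPKM.

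A gene was counted as 2-fold higher or lower when the FPKM values, each with 1 added, differed at least 2-fold between genotypes, and single differences are given as log2 ratios of JunB cKO over wild type after adding 0.1 to each value. In unperturbed keratinocytes 0 of 43 collagens were 2-fold higher in JunB cKO, where 9.31% of all genes were, and 1, Col4a5, was 2-fold lower, against 0.847% of all genes. After plucking 2 of 44 were 2-fold higher (Col11a2 and Col17a1) and 9 were 2-fold lower, while the shares over all genes were 6.42% and 5.62%. The 9 were Col1a1, Col1a2, Col3a1, Col4a2, Col5a2, Col9a3, Col12a1, Col20a1 and Col28a1. In wounds 1 member, Col24a1, was 2-fold higher and 1, Col4a3, was 2-fold lower, with 2.14% and 1.97% over all genes. Shares over all genes include those at 0 in both genotypes, which were 26994 of 46036 after plucking. All 2957 higher and 2588 lower genes there lay among the 16221 with at least 1 FPKM in either genotype, as did the collagens counted. In unperturbed keratinocytes 103 of the 2452 higher genes reached 10 FPKM.

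Many members were hardly expressed, and 23 of 43, 33 of 44 and 36 of 44 reached 1 FPKM in either genotype of the respective table. Counts were therefore also made over members with at least 10 FPKM in either genotype. In unperturbed keratinocytes 6 members reached this level and all 6 were lower in JunB cKO (median log2 ratio -0.65). Genes of that level had a median of -0.24, and 21.3% of them were higher. Of these genes 1.62% were 2-fold higher and 1.80% were 2-fold lower. After plucking 17 members reached it, of which 2 were higher and 15 lower, with a median of -0.78 where all such genes had a median of 0.01. Of the 17, 7 were 2-fold lower and 1 was 2-fold higher, while 12.3% of genes at that level were 2-fold lower and 13.1% were 2-fold higher. In wounds 19 members reached it and all 19 were higher in JunB cKO, by 0.02 to 0.61 with a median of 0.15, where genes of that level had a median of -0.02 and 47.6% of them were higher. None of the 19 differed 2-fold, against 4.09% of such genes on the higher and 3.38% on the lower side. The better expressed collagens thus stood lower in JunB cKO in unperturbed samples, as did most genes of that level. After plucking they stood lower except for Col7a1 and Col17a1, and in wounds slightly higher. Col6a1, among the 15 lower after plucking, was nearly level (-0.04) once a second entry of this gene was added.

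**Figure D2:**
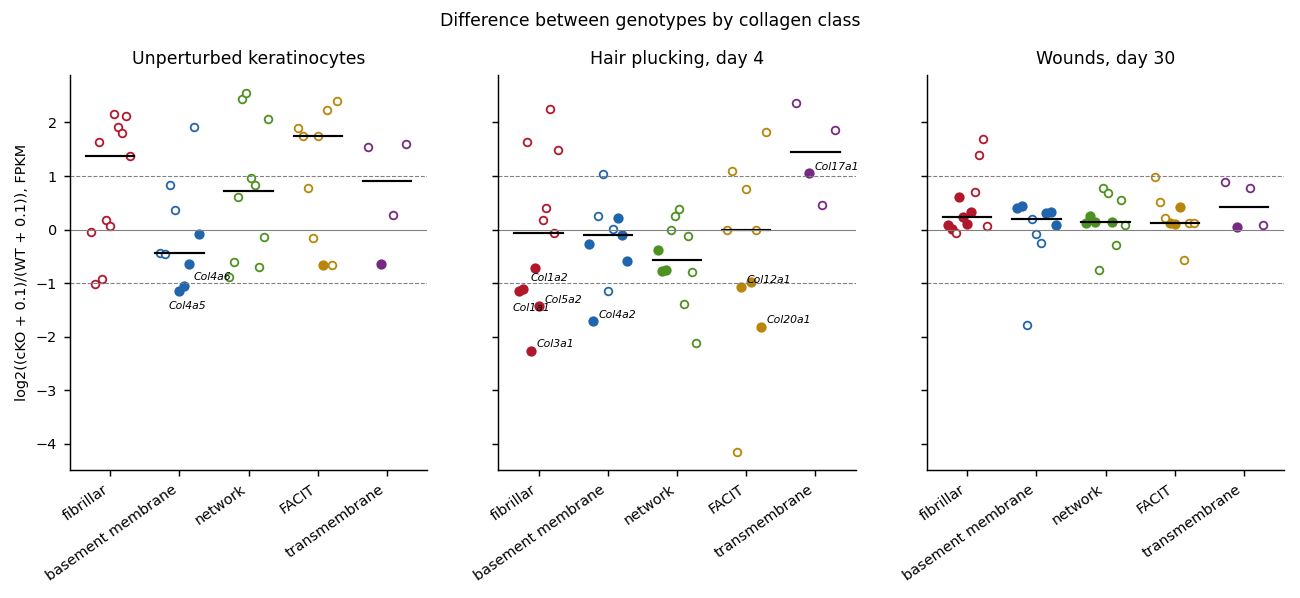
Log2 ratio of JunB cKO over wild type for each collagen chain gene by class in the 3 tables, with filled points for genes of at least 10 FPKM, open points for lower ones, bars at class medians and dashed lines at a 2-fold difference. After plucking the filled fibrillar points lie between -2.26 and -0.71, and in wounds all 19 filled points lie above 0, up to 0.61.

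The 5 fibrillar chains with at least 10 FPKM were all lower in JunB cKO after plucking. Col3a1 (ENSMUSG00000026043, chr1:45311538-45349706, GRCm38) encodes the only chain of type III collagen, which is abundant in young and healing dermis, and it was read at 2559 FPKM in wild type against 535 in JunB cKO. This is 4.78-fold lower, and its rank among all genes of the table was 28 in wild type against 146 in the mutant. Col1a1 (chr11:94936224-94953042) and Col1a2 (chr6:4504814-4541544) encode the chains of type I collagen, the main fibre of dermis. Col1a1 stood at 1168 FPKM in wild type against 527 in JunB cKO, a 2.22-fold lower level. Col1a2 stood at 525 and 245, which is 2.14-fold lower, but the 2-fold difference was lost (log2 ratio -0.77) when a second entry of this gene in the table was added. Type V chains start fibrils and limit their width, and Col5a2 was 2.71-fold lower at 74.8 and 27.6 FPKM. Its partner Col5a1 was at 27.7 and 16.9, with a log2 ratio of -0.71. Col5a3 stood at 4.83 and 5.50, higher in JunB cKO. The cartilage-type chains were low, with Col11a1 at 2.38 and 3.19 FPKM and Col11a2 at 0.243 and 1.54.

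The same fibrillar genes differed little or the other way in wounds. Col3a1 was read at 5055 FPKM in wild type against 7735 in JunB cKO, which is 1.53-fold higher and the widest difference among the 19 better expressed members of this table. Col1a1 stood at 2506 and 2673 and Col1a2 at 1314 and 1333, with log2 ratios of 0.09 and 0.02. All 3 type V chains were higher in JunB cKO, with 67.97 and 79.5 FPKM for Col5a1, 133 and 142 for Col5a2, and 15.8 and 19.8 for Col5a3. Col24a1, a minor fibrillar chain, was the member counted as 2-fold higher, at 0.650 and 2.32 FPKM. It lay at the limit and was no longer counted when ratios were centred on the median of expressed genes, 0.01. Col11a1 was at 5.10 and 8.43 and Col11a2 at 0.477 and 1.41.

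In unperturbed keratinocytes the fibrillar chains stood at most at 3.63 FPKM. Col3a1 was at 3.63 in wild type against 1.87 in JunB cKO, Col1a2 at 3.56 and 1.72, and Col1a1 at 2.66 and 2.58. The ratio between genotypes thus differed among these 3 chains, which were all far below Col17a1.

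Basement membrane chains were led by Col7a1 and Col18a1 in keratinocytes. Col7a1, the anchoring fibril chain, stood at 23.8 FPKM in unperturbed wild type and 15.2 in JunB cKO, at 126 and 146 after plucking, and at 49.2 and 61.3 in wounds. Its log2 ratios were -0.64, 0.21 and 0.31. Col18a1, whose C-terminal part is released as endostatin, was at 17.99 in unperturbed wild type with a log2 ratio of -0.08, at 63.2 and 42.4 after plucking and at 67.97 and 72.3 in wounds. Col15a1, the related chain of vessel and muscle basement membranes, was at 44.3 and 41.0 after plucking and at 66.7 and 83.1 in wounds.

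The epidermal type IV chains Col4a5 and Col4a6 had the lowest log2 ratios of all members in unperturbed keratinocytes. Col4a5 was read at 11.1 FPKM in wild type against 4.94 in JunB cKO, 2.24-fold lower. Col4a6 was at 13.6 and 6.53, 2.09-fold lower, and stayed outside the 2-fold count once 1 was added to both values. These levels correspond to approximately 961 and 126 reads for Col4a5 and 1207 and 170 for Col4a6. The median of expressed genes of that table was itself at -0.17, and relative to it the log2 ratios were -0.97 for Col4a5 and -0.88 for Col4a6. Both genes lie head to head on the X chromosome, with starts 1309 bp apart (GRCm38, Col4a5 chrX:141475385-141689234 on the plus strand and Col4a6 chrX:141165403-141474076 on the minus strand). After plucking, Col4a5 was again 2.24-fold lower at 8.71 and 3.89 FPKM, whereas Col4a6 was at 7.15 and 7.26. In wounds the pair stood at 3.88 and 3.66 for Col4a5 and 3.20 and 2.68 for Col4a6.

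The ubiquitous type IV chains Col4a1 and Col4a2, which share a bidirectional start on chromosome 8 with 21 bp between their annotated starts, parted after plucking. Col4a1 was at 51.5 FPKM in wild type against 42.9 in JunB cKO, and Col4a2 at 43.6 and 13.2, which is 3.30-fold lower. In unperturbed keratinocytes the pair differed alike, at 3.39 and 2.50 for Col4a1 and 3.63 and 2.61 for Col4a2. In wounds both were higher in JunB cKO, at 153 and 203 for Col4a1 and 46.3 and 62.9 for Col4a2. Col4a3 and Col4a4, known from the glomerular membrane and also arranged head to head (72 bp between starts, chromosome 1), were low throughout. Col4a3 was the member counted as 2-fold lower in wounds, at 3.16 and 0.841 FPKM, beside 1.39 and 1.60 for Col4a4. After plucking Col4a3 stood at 1.03 in wild type with a log2 ratio of 0.25, and Col4a4 at 0.990 and 2.12.

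Among network chains the beaded filaments of type VI led in skin. After plucking Col6a1 was at 49.1 FPKM in wild type against 37.7 in JunB cKO, Col6a2 at 39.9 and 23.3, and Col6a3 at 60.3 and 35.6, with log2 ratios between -0.78 and -0.38. The difference of Col6a1 was nearly lost (-0.04) when its second entry was added. In wounds Col6a1, Col6a2 and Col6a3 were at 112 and 123, 87.9 and 105, and 112 and 124, with log2 ratios between 0.13 and 0.26. In unperturbed keratinocytes Col6a1 was at 8.72 and 4.66, with Col6a2 at 3.35 and 2.16 and Col6a3 at 0.778 and 1.23. The further chains Col6a4, Col6a5 and Col6a6 stayed at or below 6.52 FPKM, the level of Col6a6 in JunB cKO wounds, where wild type had 4.04. Col8a1, a hexagonal network chain of vessels, was at 9.23 and 10.3 in wounds and 2.36 and 0.838 after plucking. Its partner Col8a2, known from the cornea, was the best expressed network chain of unperturbed keratinocytes at 9.39 and 5.78, ahead of Col6a1 in both genotypes. Col28a1, a chain with von Willebrand factor domains known from nerve sheaths, was at 2.74 and 0.559 FPKM after plucking and at 4.28 and 4.57 in wounds.

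The FACIT class was led by Col16a1 and Col12a1. Col16a1, which epidermal and dermal cells both make, was at 17.6 FPKM in unperturbed wild type and 11.1 in JunB cKO, 73.2 and 37.2 after plucking and 66.3 and 88.8 in wounds. Its log2 ratios were -0.66, -0.98 and 0.42. Col12a1, a chain of dense connective tissue, was at 30.1 and 14.2 after plucking, 57.0 and 62.4 in wounds and 7.51 and 6.72 in unperturbed cells. Col20a1 was 3.57-fold lower after plucking, at 12.03 and 3.37, and stood at 5.41 and 5.91 in wounds. Col14a1, which decorates mature fibrils, was higher in JunB cKO after plucking, at 3.51 and 6.02 FPKM, and was at 49.6 and 53.5 in wounds. Col9a3, a cartilage chain, was at 1.68 FPKM in plucked wild type but listed at 0 in JunB cKO.

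Of the transmembrane chains, Col17a1 (chr19:47646344-47692094, minus strand) was the highest collagen of unperturbed keratinocytes, at 645 FPKM in wild type against 412 in JunB cKO. It ranked 99 and 128 among all genes there, and its log2 ratio was -0.65, or -0.47 relative to the median of expressed genes. After plucking it was at 179 in wild type against 369 in JunB cKO, which is 2.07-fold higher, with a rank of 484 and 225. Of the 17 members with at least 10 FPKM it alone was 2-fold higher. In wounds it was at 85.5 and 88.3, with a log2 ratio of 0.05. Col23a1, a shed transmembrane collagen of epithelia, was at 7.90 and 9.54 in unperturbed cells, 3.81 and 5.27 after plucking and 2.12 and 3.68 in wounds, and was thus higher in JunB cKO in each table. Across all 3 comparisons 13 members neither reached 10 FPKM, nor differed 2-fold, nor belonged to types IV, VI, VII or XVII, and those of them that are named with values were chosen after their values were seen. In unperturbed cells 10 of these were higher and 2 lower, after plucking 8 and 2 with 3 at 0 in both genotypes, and in wounds 10 and 3.

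Ratios between chains within 1 column of a table do not depend on how that column was scaled. The following pairs were chosen after their values had been seen. The ratio of Col1a1 to Col1a2 was 2.22 in wild type against 2.15 in JunB cKO after plucking and 1.91 and 2.01 in wounds, while with the second Col1a2 entry added the plucked samples gave 1.38 and 1.06. The ratio of Col3a1 to Col1a1 was 2.19 in wild type against 1.02 in JunB cKO after plucking, and 2.02 and 2.89 in wounds. Type III therefore differed from type I in both tables, and in opposite directions. The ratio of Col4a1 to Col4a2, which form 1 triple helix together, was 1.18 and 3.24 after plucking but 3.30 and 3.23 in wounds and 0.935 and 0.959 in unperturbed cells. That of Col4a5 to Col4a6 was 0.810 and 0.755 in unperturbed cells, 1.22 and 0.536 after plucking and 1.21 and 1.37 in wounds. Of the type VI chains, Col6a3 to Col6a1 was 0.999 and 1.003 in wounds, and Col6a2 to Col6a1 was 0.783 and 0.853. After plucking these ratios were 1.23 and 0.944 for Col6a3 and 0.812 and 0.618 for Col6a2. With the second Col6a1 entry added they were 1.12 and 0.676, and 0.738 and 0.442.

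**Figure D3:**
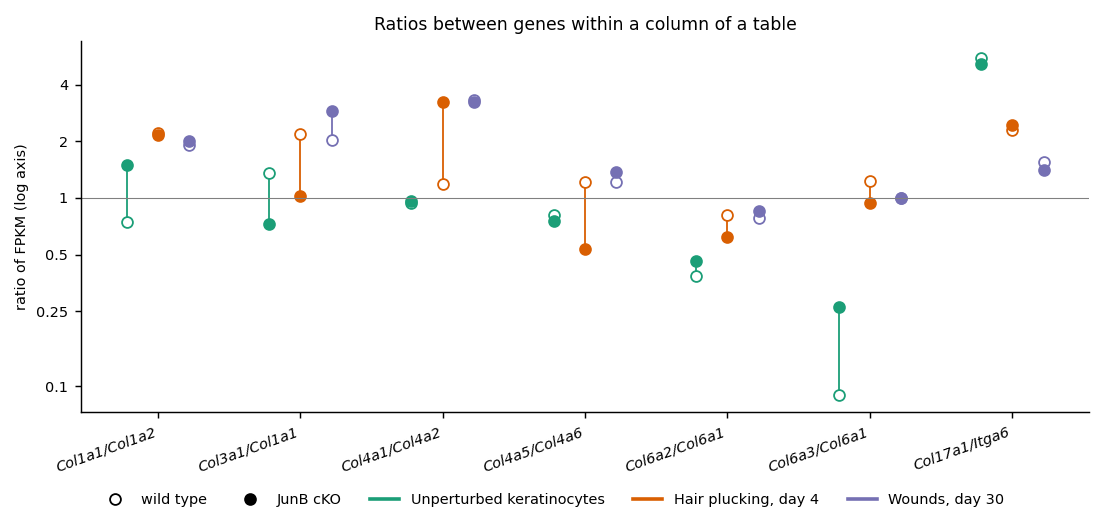
Ratios of FPKM between 2 genes of the same column (log axis), for wild type (open) and JunB cKO (filled) in the 3 tables. Col3a1/Col1a1 goes from 2.19 to 1.02 after plucking and from 2.02 to 2.89 in wounds, whereas Col17a1/Itga6 differs little between genotypes in any table (5.56 and 5.17, 2.28 and 2.43, 1.55 and 1.41).

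Col17a1 was also read beside Itga6, the integrin chain of the same hemidesmosome. The ratio of Col17a1 to Itga6 was 5.56 in wild type against 5.17 in JunB cKO in unperturbed cells, 2.28 and 2.43 after plucking, and 1.55 and 1.41 in wounds. Itga6 itself was at 78.3 and 152 FPKM in the plucked samples, so both genes were about as much higher in JunB cKO there. Against the basal keratins, the ratio of Col17a1 to Krt5 was 0.291 and 0.437 after plucking, and that to Krt14 was 0.0731 and 0.216. Krt14 was at 2446 and 1709 FPKM in that table.

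Genes that process, link and bind collagens were read from lists of 27 procollagen processing genes, 15 genes of crosslinking and fibril assembly and 12 collagen receptors. Of genes with at least 1 FPKM in either genotype, 51.2% were higher in JunB cKO after plucking and 51.4% in wounds. After plucking all 15 assembly genes were lower in JunB cKO, 4 of them at least 2-fold (5.62% of all genes and 12.3% of those with at least 10 FPKM were), with a median log2 ratio of -0.67. The lowest ratio was that of Lox, the crosslinking lysyl oxidase, at 22.3 and 5.34 FPKM, and the highest that of Lum, a proteoglycan on fibrils, at 88.9 and 65.7. Sparc, a collagen-binding matrix protein, was at 819 and 318. Sparc and the genes from Adamts2 to Ddr1 below were picked after their values were seen. Among the 26 processing genes 10 were higher and 14 lower, with a median of -0.17, from Tll1, a propeptide protease, at 6.29 and 0.408 FPKM to Adamts3, another one, at 0.329 and 1.79. Adamts2, which removes the N-terminal propeptide of fibrillar chains, was at 19.98 and 5.04 FPKM, and Serpinh1, the collagen chaperone HSP47, at 95.8 and 60.3. The prolyl hydroxylase subunits P4ha1 and P4ha2, which hydroxylate prolines of collagen chains, were at 20.1 and 28.5 and at 20.8 and 37.0. P4ha3, Tll2 and Gp6 were listed at 0 in both genotypes. Of 11 receptors 2 were higher and 8 lower (median -0.12), from Cd36, a scavenger receptor of adipocytes, vessels and leukocytes, at 216 and 32.8 to Adgrg1, a receptor for type III collagen, at 15.9 and 22.5. Ddr2, the fibrillar collagen receptor of mesenchymal cells, was at 30.4 and 19.9, and Ddr1, that of epithelia, at 25.5 and 23.6. In wounds 17 processing genes were higher and 8 lower with a median of 0.21, while 8 assembly genes were higher and 7 lower with a median of 0.02. Lox was at 77.3 and 73.3 FPKM and Sparc at 1085 and 1069 there. The processing list ran there from Plod2, a lysyl hydroxylase, at 21.8 and 14.3 to P3h4, a partner of such hydroxylases, at 5.24 and 12.6. The assembly list ran from Fn1, fibronectin, at 295 and 241 to Loxl3, a lysyl oxidase, at 3.54 and 5.41. Among receptors 6 were higher and 4 lower, from Mrc2, a receptor for collagen uptake, at 12.4 and 10.6 to Cd36 at 315 and 406. In unperturbed keratinocytes 16 of 27 processing genes, 10 of 15 assembly genes and 6 of 12 receptors were higher. So were 56.2% of all genes there, and 93.6% of those at or below 1 FPKM. The lowest ratios there were those of Adamts14 at 12.04 and 7.12, Fn1 at 4.85 and 2.15 and Cd36 at 5.51 and 1.38.

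Markers of cell types differed beside the collagens in the plucked samples. Of all genes with at least 1 FPKM in either genotype of that table, 51.2% were higher in JunB cKO. Of 11 fibroblast markers 9 were lower in JunB cKO and 2 higher, with a summed level of 1256 FPKM in wild type against 845 in JunB cKO and a median log2 ratio of -0.75, from Twist2 at 3.07 and 0.326 to Thy1 at 32.7 and 40.8. The 6 skeletal muscle markers in the table were all lower, with a sum of 275 and 31.6 FPKM, 8.71-fold lower, and Tnni2, a troponin of fast fibres, was at 76.6 and 5.58. Of the 6 adipocyte markers 4 were lower and 2 higher. They summed to 189 and 68.8, most of it from the fatty acid binding protein Fabp4 at 125 and 27.4, while the hormone Adipoq was at 8.76 and 17.4 and Retn at 0 and 3.46. Of the 7 leukocyte markers 6 were lower and 1 higher, with a sum of 235 and 84.3 and the macrophage marker Cd68 at 34.9 and 6.23. By contrast the 10 keratinocyte markers summed to 9359 and 10642, with 6 higher and 4 lower. Endothelial markers (3 higher, 4 lower) summed to 74.7 and 54.9, smooth muscle and pericyte markers (1 higher, 5 lower) to 210.3 and 149.6, and Schwann cell markers (4 higher, 1 lower) to 40.9 and 55.4. No marker of these lists was at 0 in both genotypes. Of the fibroblast markers only Twist2 (-2.89, at 3.07 and 0.326 FPKM) lay below the log2 ratio of Col3a1 (-2.26). Pdgfrb was at -1.98, Dpt at -1.71 and Fbn1 at -1.24, and the others lay from -0.78 (Mfap5) to 0.32 (Thy1). Dcn, a proteoglycan of collagen fibrils, was at 754 and 475 FPKM, a smaller difference than in Twist2, Pdgfrb, Dpt and Fbn1. Dcn, Lum and Dpt are also in the list of assembly genes. The ratio of Col3a1 to Dcn was 3.40 in wild type against 1.13 in JunB cKO, and that of Col1a1 to Dcn 1.55 and 1.11. Set against Twist2, Pdgfrb, Dpt or Fbn1, Col1a1 (-1.15) would instead stand higher in JunB cKO. The direction of a ratio of Col1a1 thus depends on the marker chosen. Fewer fibroblasts in a sample and less collagen RNA per fibroblast cannot be told apart in these bulk samples, and the part of the other cell types in the collagen differences was not tested. In wounds the fibroblast markers summed to 2509 and 2554, with 6 higher and 5 lower, and the ratio of Col3a1 to Dcn was 3.53 and 5.34. Skeletal muscle markers summed to 5384 and 6212 there, and all 6 were higher in JunB cKO. Endothelial markers (6 of 7 higher) summed to 144 and 197 in wounds, and adipocyte markers (5 of 6 higher) to 986 and 1333. Smooth muscle markers (6 of 6 higher) summed to 220.1 and 263, and Schwann cell markers (4 of 5 higher) to 60.6 and 93.7. Leukocyte markers (5 of 7 higher) summed to 413 and 423, and keratinocyte markers (4 of 10 higher) to 4663 and 5350. All genes of that table summed to 744662 and 861170, which is itself 1.16-fold higher in JunB cKO. Of genes with at least 1 FPKM in either genotype there, 51.4% were higher. The part of these cell types in the collagen differences was not tested.

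**Figure D4:**
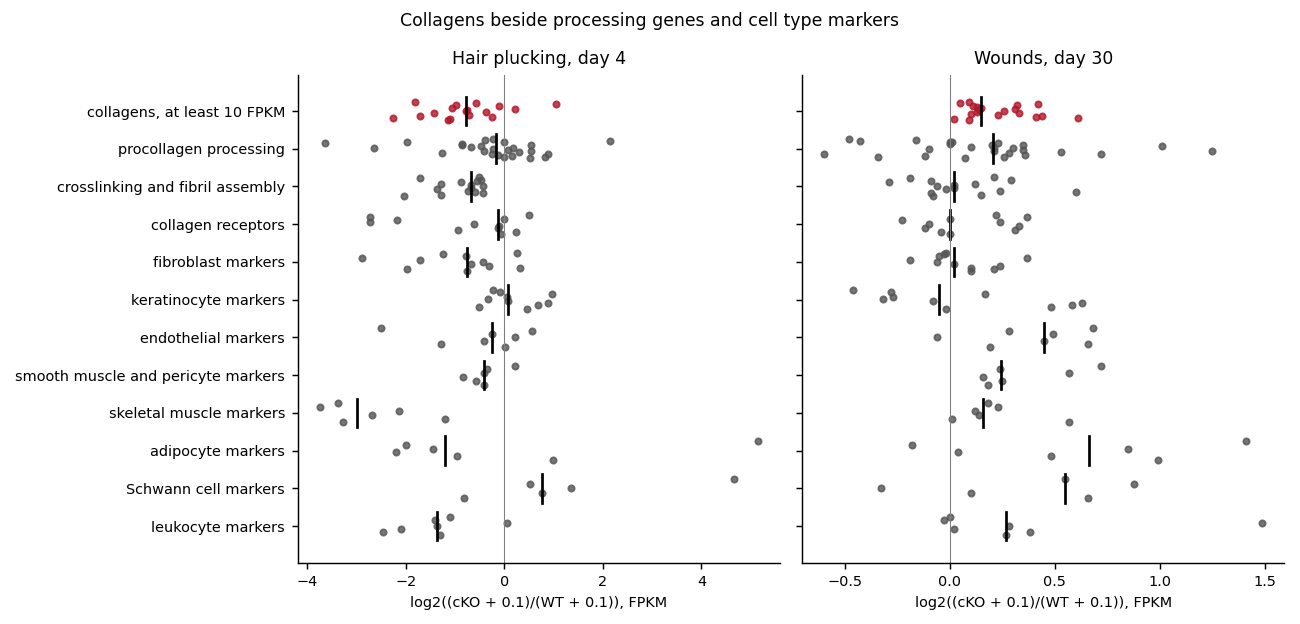
Log2 ratio of JunB cKO over wild type for the collagens with at least 10 FPKM (red), for collagen-related gene lists and for cell type markers (grey) after plucking and in wounds, each point 1 gene and each bar a median, with different horizontal scales. After plucking the medians of collagens (-0.78), assembly genes (-0.67) and fibroblast markers (-0.75) lie close together. The assembly and fibroblast lists share Dcn, Lum and Dpt, so their medians are not independent of each other. The median of skeletal muscle markers lies lowest after plucking (-2.98). In wounds the median of the collagens (0.15) lies above that of the fibroblast markers (0.02).

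The unperturbed libraries differed in estimated depth and in the level of weakly read genes. JunB is the deleted gene, and it was at 268 FPKM in wild type against 31.4 in JunB cKO in unperturbed cells, 40.8 and 11.7 after plucking and 33.4 and 15.4 in wounds. Depth was estimated and not counted. Loci of the receptor genes named below, 880 to 1000 bases long, with the lowest levels above 0 were taken to hold 1 read. On that assumption an FPKM of 1 over 1 kb was worth 13.3 reads in the unperturbed wild type library and 3.92 in that of JunB cKO. This gives a 3.39-fold difference in depth. Olfactory, vomeronasal and bitter taste receptor genes, taken as a background of genes with little use in skin, had a median of 0 FPKM in wild type against 0.543 in JunB cKO of that table and of 0 in all other columns. Of 1453 such genes 1248 were higher in JunB cKO of the unperturbed table, and the part of depth in this was not tested. Within 2 times that median lay 21 of the 43 collagens, and all 21 were higher in JunB cKO, from 0 to 0.703 FPKM in wild type and from 0.272 to 1.02 in JunB cKO. Of the 22 above it 5 were higher and 17 lower. Among all genes of the table at or below 1 FPKM 93.6% were higher in JunB cKO, and the same held for 20 of 20 collagens of that level. Between 10 and 100 FPKM it was 20.3% of genes and 0 of 5 collagens. The median log2 ratio of all 43 collagens, 0.60, therefore described the low members, and that of the 23 members with at least 1 FPKM was -0.46. Of the markers of other cell types in these cells, 7 of 7 endothelial ones were higher in JunB cKO, with a sum of 0.384 and 4.25 FPKM. Of 12 fibroblast markers 9 were higher, but their sum was 179.5 and 143, most of it from S100a4 at 119 and 83.4 and Vim at 32.4 and 21.9. Schwann cell markers summed to 22.1 and 20.9, with 4 of 5 higher.

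**Figure D5:**
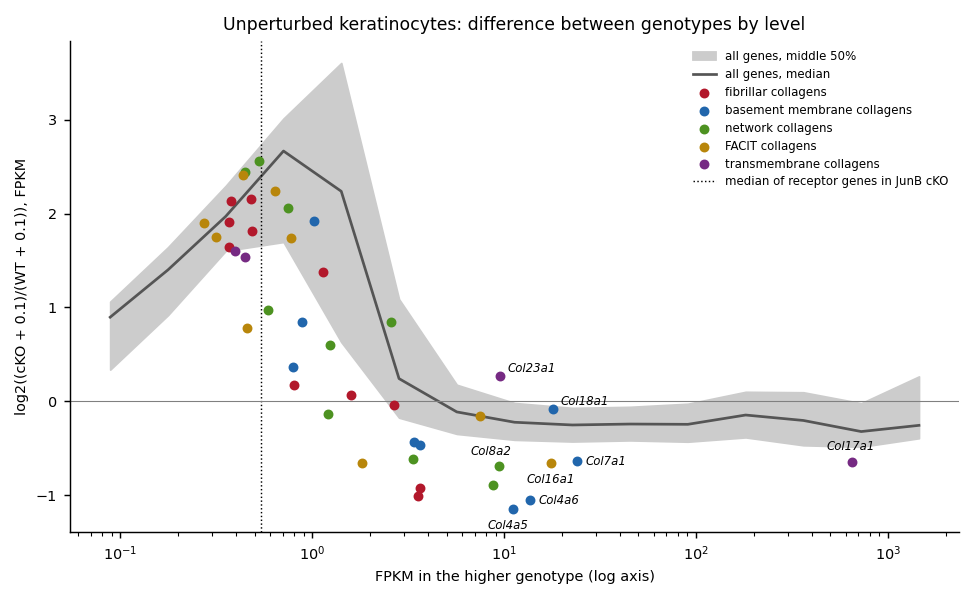
Log2 ratio of JunB cKO over wild type in unperturbed keratinocytes against FPKM in the higher genotype (log axis), with collagens as points coloured by class, the median and middle 50% of all genes as line and band, and the median of receptor genes in JunB cKO as a dotted line. Collagens near the dotted line (0.543) lie above 0, as does the band there, but some, such as Col5a1 (0.17) and Col4a4 (0.37), lie below that band. Of the collagens with at least 10 FPKM, Col18a1 (-0.08) lies within the band. Col4a5 (-1.15), Col4a6 (-1.05), Col16a1 (-0.66), Col17a1 (-0.65) and Col7a1 (-0.64) lie below it. So do several at lower levels, such as Col6a1 (-0.89) and Col8a2 (-0.69).

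In the plucking table some symbols were listed more than once at identical coordinates, 615 in all, and 3 members were among them. For Col1a2 the entry used above had 525 FPKM in wild type against 245 in JunB cKO, and the second had 321 and 249.6. Their sum was 846 and 495, with a log2 ratio of -0.77 in place of -1.10. For Col6a1 the second entry had 4.92 and 14.9, and with both summed its level was 54.1 and 52.6. Col22a1 was at or near 0 in both entries.

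The promoters of the members were read for 3 short motifs, from 250 bases before to 50 bases after the annotated start (RefSeq, GRCm38.p6), which were given for 35 of the 44 genes. Distances below count from this RefSeq start. For Col1a2, Col6a1 and Col17a1 it differs from the start in the GENCODE gene positions, within which the windows shown for Col1a2 and Col6a1 lie. The first motif, TGANTCA, is the site that AP-1 factors such as JunB bind, and N stands for any base. It reads the same on both strands and was held by 1 of 35 collagen promoters (2.86%) against 8.97% of 27025 promoters. That one was Col6a1, shown here with the motif in capitals on the minus strand at chr10:76726120-76726142, 90 bases before the start.
Col6a1: tgatgctgTGACTCActcagctt
The letters TATAAA, a form of the TATA box, were held by 5 of 35 promoters (14.3%, against 15.7% of all), read in the direction of the gene or its reverse complement. Col3a1 and Col17a1, which went opposite ways after plucking, were both among the 5. Their windows are shown with TATAAA in capitals, Col3a1 at chr1:45311413-45311434 on the plus strand, 117 bases before the start, and Col17a1 at chr19:47692120-47692141 on the minus strand, 91 bases before the start.
Col3a1: atgcatgtTATAAAcatatgca
Col17a1: tgcccgtcTATAAAgtgtggtt
A further TATAAA of Col17a1 lies 140 bases before the start. The letters CCAAT, on either strand, were held by 13 of 35 promoters (37.1%) and by 41.1% of all. Col1a2 is shown for it, at chr6:4505501-4505521 on the plus strand, 109 bases before the start.
Col1a2: gaatggaaCCAATttaagaag
A match is a run of letters and does not show that a factor binds there.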

How the data were processed

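RNA-seq of 8 mouse samples in 6 groups was deposited as 3 Cuffdiff tables, each with 1 FPKM value per locus and genotype. The authors made the FPKM values with TopHat or HISAT2, Cufflinks and Cuffdiff on mm10 (GRCm38) after ribosomal RNA depletion. The tables also hold the authors' fold changes, test statistics, p- and q-values, which were not used. Genotypes were taken from the sample names inside the tables (WT or Co against KO or Mut), and the condition of the plucking and wound tables from the tables' names. Gene positions come from GENCODE M21 and the starts used for promoters from RefSeq.

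Where a symbol had several loci, the one with the highest FPKM over both genotypes stood for it. Log2 ratios used a pseudocount of 0.1 and counts of 2-fold differences a pseudocount of 1. With 1 value per genotype no test, error or p-value was computed. Approximate depth, and the read numbers given, came from receptor gene loci taken to hold 1 read. The members and all gene lists were chosen with earlier results of these data known. Named by rule were members that reached 10 FPKM or were counted as 2-fold different in any table, all chains of types IV, VI, VII and XVII, and the genes with the extreme ratios of each other list, of which some are left to the lists' counts here. Genes of the unperturbed table listed under older symbols were matched through RefSeq synonyms. Protein repeats were not analysed here. Python 3.11.15, pandas 2.3.3, numpy 2.4.6 and matplotlib 3.10.9 were used. Only the 2-fold count was tried on simulated data, with genes of at least 10 FPKM changed well past the limit. The other steps, low levels and unequal depth were not tried in this way. Alternatives were other pseudocounts, a 1.5-fold limit, a minimum of 1 FPKM, centring on the median of expressed genes, subtraction of the receptor gene median, summed loci and narrower classes.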

Additional observations from a re-analysis of the deposited data

Results flagged for a closer look

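Col3a1, the type III chain, was lower in JunB cKO in unperturbed keratinocytes (log2 ratio -0.92) and after hair plucking (-2.26) and higher in wounds (0.61). Col17a1 was lower in unperturbed keratinocytes (-0.65) and higher after plucking (1.05). Centred on the median of expressed genes, its unperturbed log2 ratio was -0.47, which is less than a 1.5-fold difference. Col28a1 was higher in unperturbed keratinocytes (2.06), where wild type held approximately 6 reads and the mutant 12, and lower after plucking (-2.11). At 0.103 and 0.747 FPKM its unperturbed levels lay within 2 times the receptor gene median, where all 21 collagens were higher in JunB cKO, and subtracting that median left a log2 ratio of 0.58. These are the members that differed by at least 1.5-fold in opposite directions in 2 tables when 1 FPKM was added to both values. The difference between tables was not tested, because each holds 1 value per genotype.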

How the results depend on the processing

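No paired analysis was possible because each table held 1 value per genotype, and for the same reason no library could be left out and no alternative test was run for wounds. The count of collagens at least 2-fold higher in unperturbed keratinocytes was 0 and became 17 with a pseudocount of 0.1, 18 with 0.01 and 6 with a 1.5-fold limit. The count of lower ones was 1 and became 3 with either smaller pseudocount, 0 after centring on the median of expressed genes and 9 with the 1.5-fold limit. After plucking the higher count of 2 became 9 with either smaller pseudocount and 5 with the 1.5-fold limit, and the lower count of 9 became 15 with that limit, 11 with either smaller pseudocount and 8 with loci summed, where Col1a2 was no longer counted. In wounds the higher count of 1 became 3 and 4 with pseudocounts of 0.1 and 0.01, 0 after centring and 5 with the 1.5-fold limit, and the lower count became 2 with 0.01. The median log2 ratio of all collagens in unperturbed keratinocytes, 0.60, became -0.46 with a minimum of 1 FPKM and -0.59 with the receptor gene median subtracted. Class medians reversed likewise, to -0.04 and -0.49 for fibrillar, -0.37 and -0.50 for network, -0.66 and -0.28 for FACIT and -0.19 and -0.68 for transmembrane chains. Narrower classes gave -0.13 for hexagonal network chains, 0.92 for multiplexins (both unperturbed) and 0.21 for the anchoring fibril chain after plucking. With the receptor median subtracted, 16 of the 43 members of the unperturbed table changed sign, all of them from higher to lower in JunB cKO. Of these, 9 had been past 2-fold, namely Col2a1 (-0.59 after subtraction), Col5a3 (-0.38), Col6a5 (-0.09), Col9a2 (-0.30), Col11a1 (-0.32), Col11a2 (-0.73), Col13a1 (-0.91), Col24a1 (-0.12) and Col25a1 (-0.71), and 7 had not, namely Col4a3, Col4a4, Col5a1, Col5a2, Col6a3, Col6a6 and Col9a3, with -0.16 to -1.69 after it.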
